A study of Mus musculus with 6 samples.

Results

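The nuclear-encoded subunits of the mitochondrial respiratory chain were compared between the parental line CT26.mMR1 and M8, a mutant derived from it. The genes were chosen by name. They are the Ndufa, Ndufb, Ndufc, Ndufs and Ndufv genes of complex I, the genes Sdha to Sdhd of complex II, the Uqcr genes of complex III, the Cox4 to Cox8 genes of complex IV and the Atp5 genes of complex V, without the Ndufaf assembly factors and without pseudogenes. Ndufa4 and Ndufa4l2 were placed with complex IV, because NDUFA4 is a subunit of cytochrome c oxidase. Of the 24346 gene symbols in the data, 85 matched these names, and the 79 with a mean of at least 1 FPKM over the 6 samples were tested. FPKM is the number of fragments per kilobase of transcript and per unit of library size, so levels of different genes can be compared per length. Of the 79 genes, 36 belonged to complex I, 4 to complex II, 8 to complex III, 14 to complex IV and 17 to complex V.

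CT26 is a mouse colorectal tumor line, and CT26.mMR1 cells carry retrovirally transduced mouse MR1, the molecule that presents metabolites to mucosal-associated invariant T cells. M8 carries the same MR1 transgene and came from CT26.mMR1 cells treated with the mutagen ENU at 0.3 mg/mL and cloned by limiting dilution. It was kept for its screening phenotype, so that a difference between the lines cannot be told apart from a trait of 1 clone. There were 3 RNA sequencing libraries of each line. The study calls them biological replicates. Whether they came from separate cultures is not stated in the sources used here, and the p-values measure only the spread between these libraries.

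The respiratory chain passes electrons from NADH and succinate through complexes I and II to coenzyme Q, on through complex III and cytochrome c to complex IV, which reduces oxygen. Complexes I, III and IV pump protons across the inner mitochondrial membrane, and complex V, the ATP synthase, uses the gradient to make ATP. Most subunits are encoded in the nucleus and imported, while a small set is encoded in mitochondrial DNA. The mitochondrially encoded subunits were not analysed here.

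The lines differed in depth. Relative depth, read from the FPKM steps of weakly expressed genes, was 0.948 to 1.07 in the parental libraries, with parental replicate 1 set to 1, and 0.772 to 0.875 in M8. Between 14099 and 14357 symbols had a value above 0 in the parental libraries and between 13747 and 14016 in the M8 libraries, and the part of depth in the results below was not tested. The Mr1 level was between 1034 and 1139 FPKM in all 6 libraries, and its difference did not pass the test (limma, log2 fold change -0.03, adjusted p = 0.615). The colon label was checked with 14 epithelial markers. Of these, 5, among them Epcam and Cdh1, were listed at 0 in all libraries and 3 reached a mean of 1 FPKM. They summed to 41.9 to 57.7 FPKM in the parental and 48.2 to 50.2 FPKM in the M8 libraries, mostly Krt18, and the other two tested, Krt20 (log2 fold change -0.50, limma adjusted p = 0.00438) and Lgals4 (-0.66, limma adjusted p = 0.00728), were lower in M8. Of 10 fibroblast and mesenchymal markers, 7 reached a mean of 1 FPKM, 1 was higher in M8 (Pdgfrb) and 2 were lower (Pdgfra and Dcn), and Thy1 was listed at 0 in all libraries. These markers summed to 2453 to 2856 FPKM in the parental and 2655 to 2754 FPKM in the M8 libraries, mostly Vim. Their part in the subunit results was not tested.

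On FPKM as deposited, more subunit genes passed the test as higher than as lower in M8, and the differences were small. In limma's test on log2(FPKM + 1) over all 10597 genes with a mean of at least 1 FPKM, 33 of the 79 genes (41.8%) were higher in M8 at an adjusted p below 0.1, 3 (3.797%) were lower, and 43 did not pass. Over all genes tested, 21.2% were higher and 16.5% were lower. The ratio of mean FPKM, M8 over parental, lay between 0.541 for Atp5s, a member by symbol as described below, and 1.26 for Ndufa4. Of the 79 genes, 78 changed by less than 1.5-fold. The M8 values lay all above the parental values in 31 of the 79 genes and all below in 4, against 24.8% and 20.4% of all genes tested. Of the 72 subunit genes with a mean of at least 60 FPKM, they lay above in 29 and below in 3. Of the 1475 other genes at this level, they lay above in 657 and below in 204. Without M8 replicate 1, 20 of the 79 genes were higher, and 13 of the 36 calls were lost. The shares of all genes called in fits that left out a library are not given, so such losses, here and below, cannot be set against them.

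**Figure D1:**
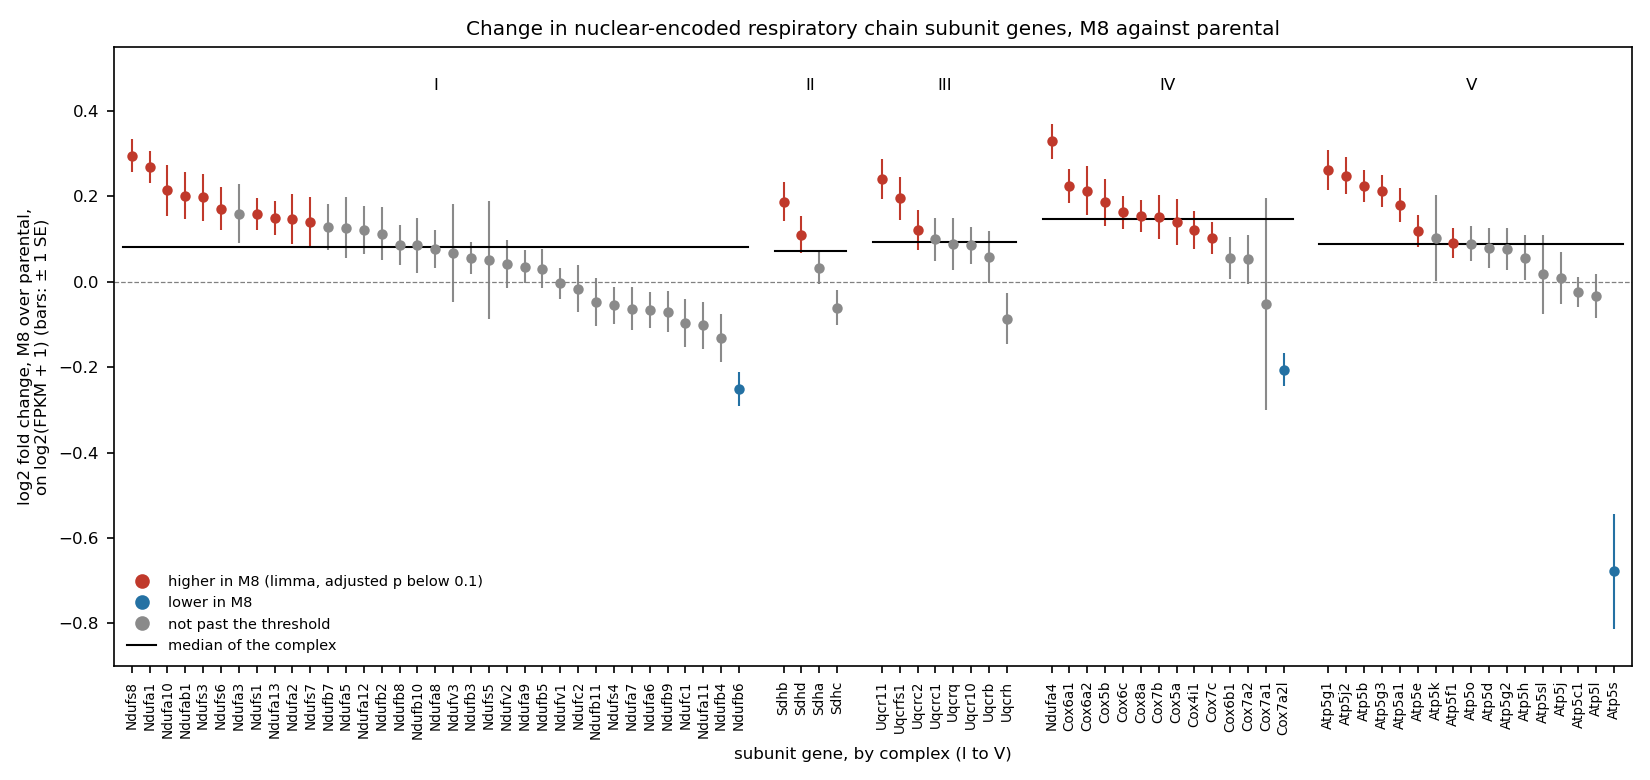
Log2 fold change of 78 of the 79 subunit genes, M8 over parental, with 1 SE from limma, ordered within complexes I to V, with the median of each complex as a black line. Calls in red (higher) and blue (lower) are for FPKM as deposited, and the medians of complexes I, II, III and V fell below 0 under quantile normalization.

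The counts in each direction depended on how the libraries were scaled. Rescaled to TPM, 27 genes were higher and 9 lower, against 15.6% and 20.8% of all genes tested. With upper-quartile scaling 21 were higher and 13 lower, against 13.9% and 26.1% of all genes. With quantile normalization 13 were higher and 15 lower (16.5% and 19.0%), against 17.2% and 16.7% of all genes, so that under this scaling the share of higher subunit genes was near the background. Calls for 15 genes held in the same direction under every alternative tried. Among them were Ndufa1, Ndufs8, Sdhb, Uqcr11, Uqcrfs1, Cox6a1, Cox6a2, Ndufa4, Atp5b, Atp5g1, Atp5g3 and Atp5j2, which were higher in M8, and Ndufb6 and Cox7a2l, which were lower.

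The level of a gene went along with its direction in these data. Among the 1475 genes outside the respiratory chain with a mean of at least 60 FPKM, 40.2% were higher in M8 and 10.6% lower, and among the 9043 genes below that level 17.96% were higher and 17.5% lower. Of the 72 subunit genes with a mean of at least 60 FPKM, 31 (43.1%) were higher and 2 (2.78%) lower. Their median log2 fold change was 0.10, and that of the other genes at this level was 0.08. The share of higher genes among the subunits was thus near that of other abundant genes, and the share of lower genes was smaller. Subunit transcripts were short, with a median of 680 bases against 2102 for all genes tested. Among the 550 other genes that had both a mean of at least 60 FPKM and transcripts under 1000 bases, 35.5% were higher and 12% lower. Of the 59 subunit genes with transcripts under 1000 bases, at any level tested, 20 (33.9%) were higher and 2 (3.39%) lower. The part of level, transcript length and scaling in the subunit counts was not tested further.

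In each replicate, the log2(FPKM + 1) of every gene was set against its parental mean, and the median over the 79 genes was taken. This median was -0.03, -0.01 and 0.03 in parental replicates 1 to 3 and 0.11, 0.11 and 0.07 in M8 replicates 1 to 3. The lowest M8 replicate lay above the highest parental replicate, and the same order was found for each of the 5 complexes on FPKM as deposited. The gap was narrowest for complex II, with 0.044 in the highest parental and 0.050 in the lowest M8 replicate, and widest for complex IV, with 0.048 and 0.126.

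**Figure D2:**
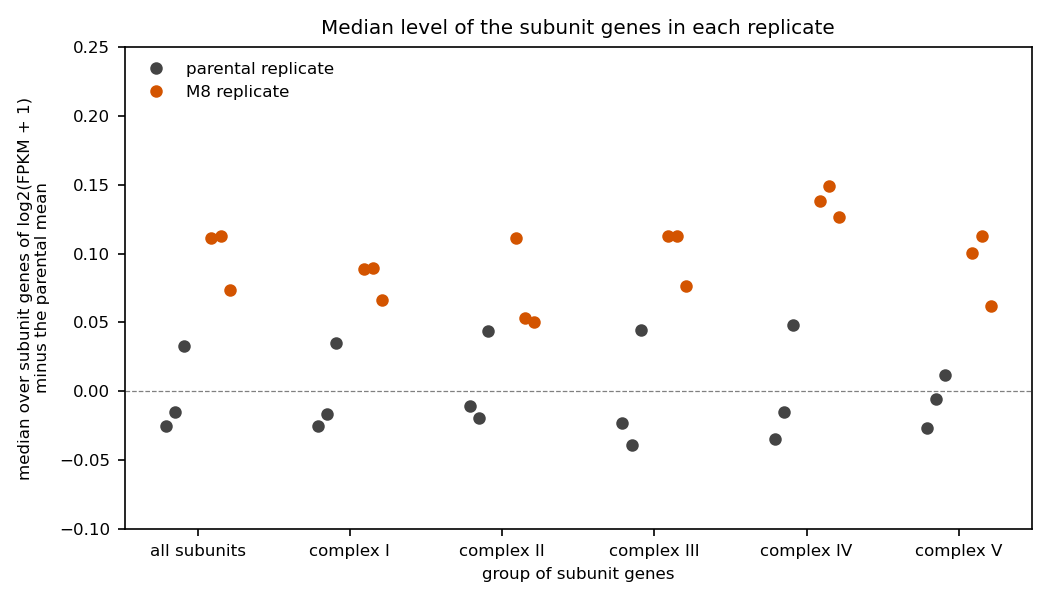
Median over the subunit genes of log2(FPKM + 1) minus the parental mean of each gene, for each parental and M8 replicate (1 point per library), on FPKM as deposited. For all 79 genes the parental replicates lay between -0.03 and 0.03 and the M8 replicates between 0.07 and 0.11.

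By complex, the median log2 fold change was 0.08 for complex I, 0.07 for complex II, 0.09 for complex III, 0.15 for complex IV and 0.09 for complex V. It was 0.01 for all genes tested and 0.08 for the other genes with a mean of at least 60 FPKM. Under quantile normalization the medians of complexes I, II, III and V fell below 0. The medians of the 5 complexes lay between 0.035 and 0.11 on the TPM scale and between 0.010 and 0.085 with upper-quartile scaling. Complex I had 0.045 and 0.020 on these scales, and 0.044 without parental replicate 1. Complex IV had the highest median under each of the 5 scalings. Median centring, TPM and upper-quartile scaling shift all medians nearly alike, so only quantile normalization could readily change this order. Differences between complexes were not tested.

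**Figure D3:**
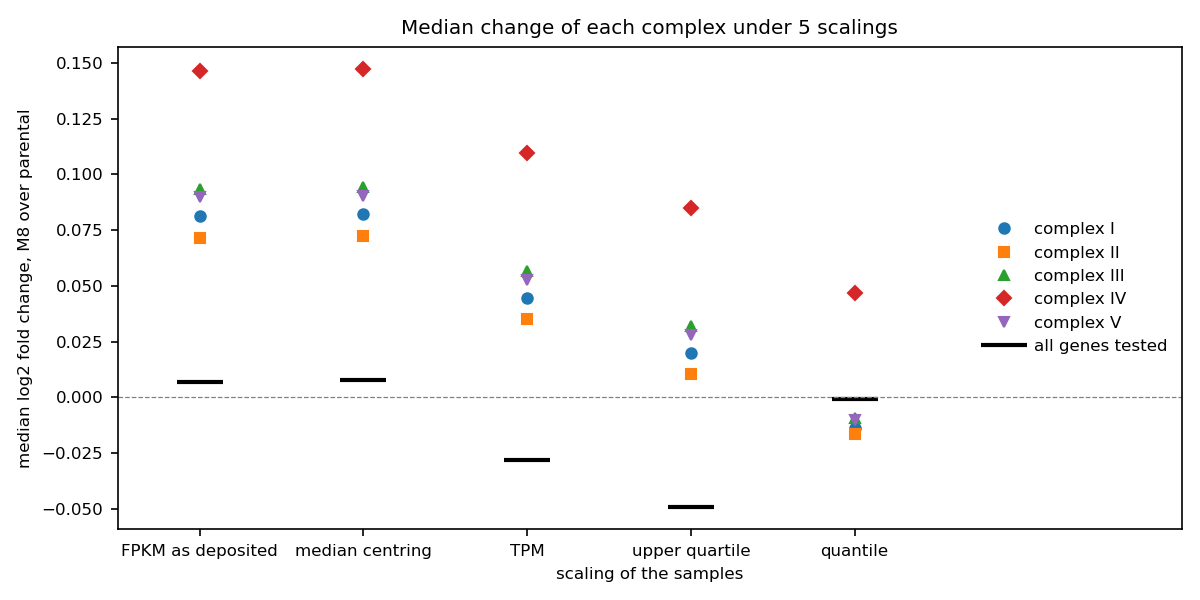
Median log2 fold change of complexes I to V and of all 10597 genes tested, M8 over parental, for FPKM as deposited and 4 other scalings. Complex IV lay highest throughout, while complexes I, II, III and V fell below 0 and below the median of all genes under quantile normalization. The other scalings shift all medians nearly alike and could hardly change the order.

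The 4 genes at the ends of the range were Ndufa4 and Ndufs8, which rose most in M8, and Atp5s and Ndufb6, which fell most. Their promoters are shown because these are the genes in which expression moved farthest in each direction. The 250 bases before each RefSeq start site (GRCm38.p6, the assembly called mm10) are given 5′ to 3′ on the strand of the gene. Capitals mark matches, on either strand, to short core motifs of 3 factors known to bind promoters of respiratory genes, CGCATGCG for NRF1, CCGGAAG for ETS factors such as GABPA, and GCCATNTT for YY1.
Ndufa4, chr6:11907451-11907700, minus strand: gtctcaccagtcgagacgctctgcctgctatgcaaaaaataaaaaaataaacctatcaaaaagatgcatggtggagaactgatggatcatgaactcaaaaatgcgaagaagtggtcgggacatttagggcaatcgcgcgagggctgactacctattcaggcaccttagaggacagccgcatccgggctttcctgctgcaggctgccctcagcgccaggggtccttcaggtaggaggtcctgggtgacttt
Ndufs8, chr19:3912775-3913024, minus strand: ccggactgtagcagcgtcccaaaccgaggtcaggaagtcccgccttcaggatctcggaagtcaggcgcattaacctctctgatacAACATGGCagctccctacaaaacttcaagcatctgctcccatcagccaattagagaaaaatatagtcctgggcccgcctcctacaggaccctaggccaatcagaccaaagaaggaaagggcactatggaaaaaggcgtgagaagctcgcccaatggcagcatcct
Atp5s, chr12:69724695-69724944, plus strand: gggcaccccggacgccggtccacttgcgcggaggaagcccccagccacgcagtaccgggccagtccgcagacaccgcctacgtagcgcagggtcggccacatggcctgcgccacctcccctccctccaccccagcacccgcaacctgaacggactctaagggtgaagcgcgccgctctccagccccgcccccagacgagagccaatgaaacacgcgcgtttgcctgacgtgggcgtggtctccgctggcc
Ndufb6, chr4:40279422-40279671, minus strand: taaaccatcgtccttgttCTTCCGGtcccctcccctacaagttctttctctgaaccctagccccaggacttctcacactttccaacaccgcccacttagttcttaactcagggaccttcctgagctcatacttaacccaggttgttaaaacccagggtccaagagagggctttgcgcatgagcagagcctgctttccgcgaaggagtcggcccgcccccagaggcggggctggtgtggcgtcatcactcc

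The Ndufs8 promoter held a YY1 match in these bases and an ETS match in the 50 bases after its start, the Ndufb6 promoter held an ETS match, and the letters of the 3 motifs were not in the windows of Ndufa4 and Atp5s. A search of windows from 250 bases before to 50 bases after the start covered 67 of the 79 genes, with 73 windows. The YY1 motif was in 19 of the 73 windows (26.0%), against 9.07% of 10869 windows of genes tested and 6.05% of all 32851 windows in the reference table. The NRF1 motif was in 9 windows (12.3%), against 4.12% and 1.87%, and the ETS motif in 16 (21.9%), against 19.3% and 8.86%. Of the 25 windows of genes higher in M8, 7 held the YY1 motif, 8 the ETS motif and 2 the NRF1 motif. Of the 45 windows of genes that did not pass the test, 12 held the YY1 motif, 7 the ETS motif and 7 the NRF1 motif. A match is a description of the sequence only.

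Complex I, the NADH dehydrogenase, had 11 of 36 genes higher in M8 and 1 lower, and its levels ranged from 16.8 to 359.7 FPKM with a median of 109. Over all genes tested, 21.2% were higher and 16.5% lower, and among other genes with a mean of at least 60 FPKM 40.2% and 10.6%. The counts were 9 higher and 5 lower on the TPM scale, against 15.6% and 20.8% of all genes, and 7 and 8 with upper-quartile scaling, against 13.9% and 26.1%. With quantile normalization they were 3 and 9, against 17.2% and 16.7%. Without M8 replicate 1, 7 were higher. Its 7 nuclear-encoded core subunits carry the flavin and the iron-sulfur clusters that lead electrons from NADH to coenzyme Q, and the other 29 genes encode mostly accessory subunits.

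Ndufs8 encodes a core subunit with iron-sulfur clusters next to the coenzyme Q site. It had 79.6, 82.4 and 79.04 FPKM in the parental and 96.7, 100.5 and 99.2 FPKM in the M8 libraries, so the groups were well apart. The log2 fold change was 0.30 (SE 0.038, limma adjusted p = 0.00101). The exact two-sided permutation test gave p = 0.1, the smallest that 3 against 3 libraries allow, here and for each gene below whose groups did not overlap.

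Ndufs3 and Ndufs7 belong to the coenzyme Q-reducing part of the complex, as Ndufs8 does. Ndufs3 had 83.05, 93.9 and 87.1 FPKM in the parental and 105, 103 and 95.4 FPKM in the M8 libraries (log2 fold change 0.20, SE 0.055, limma adjusted p = 0.0254). All M8 values were above the parental ones, although the call was lost without M8 replicate 1 (limma adjusted p = 0.102). Ndufs7 had 92.7, 100.3 and 94.0 FPKM against 108, 112 and 97.0 FPKM, so that its groups overlapped in 1 M8 library, and its call (0.14, limma adjusted p = 0.0957) held in only 2 of the 6 fits that left out a library.

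Of the 3 core subunits at the NADH-oxidizing end of the arm, 1 was higher. Ndufs1, the largest iron-sulfur subunit, rose from 48.4, 48.8 and 48.7 FPKM to 54.4, 54.8 and 54.1 FPKM (log2 fold change 0.16, SE 0.037, limma adjusted p = 0.0120). The replicates of either line differed by less than 1 FPKM. Ndufv1, which binds NADH and the flavin, had 82.7, 85.1 and 82.6 FPKM against 83.9, 83.2 and 82.6 FPKM (-0.00, SE 0.036, limma adjusted p = 0.949), and Ndufv2 had 59.35, 62.8 and 66.3 FPKM against 66.2, 60.2 and 67.7 FPKM (0.04, SE 0.057, limma adjusted p = 0.618). Both groups overlapped in each of these genes.

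Among the accessory subunits, Ndufa1, a small membrane-arm protein encoded on the X chromosome, had 151, 144 and 145 FPKM in the parental and 175, 179 and 175 FPKM in the M8 libraries (log2 fold change 0.27, SE 0.037, limma adjusted p = 0.00139). Ndufa10 had 106, 125 and 120.0 FPKM against 141, 134 and 132 FPKM (0.21, SE 0.060, limma adjusted p = 0.0262). Ndufab1, the mitochondrial acyl carrier protein, had 85.7, 99.6 and 95.7 FPKM against 108, 107 and 108 FPKM (0.20, SE 0.054, limma adjusted p = 0.0223). The M8 values were above the parental ones in all 3 genes, but the call for Ndufa10 was lost without M8 replicate 1 (limma adjusted p = 0.105). Ndufs6, Ndufa13 and Ndufa2 were the other accessory subunit genes called higher, with log2 fold changes of 0.17, 0.15 and 0.15. The call for Ndufa2, whose groups overlapped, held in 2 of the 6 fits that left out a library.

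Ndufb6, an accessory subunit of the membrane arm whose promoter is printed above, was the complex I gene that was lower in M8. It had 99.9, 97.1 and 97.3 FPKM in the parental and 84.1, 83.8 and 78.96 FPKM in the M8 libraries. The M8 values were all below the parental ones, with a log2 fold change of -0.25 (SE 0.041, limma adjusted p = 0.00255). Its exons overlap those of Smim27 on the opposite strand, and the sources used here do not say whether strand was used when the FPKM values were calculated. Ndufa3, with the highest mean level in the complex, 359.7 FPKM, had 309, 330.2 and 382 FPKM in the parental and 369, 376 and 391 FPKM in the M8 libraries. These groups overlapped, and the difference did not pass (0.16, SE 0.069, limma adjusted p = 0.113).

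**Figure D4:**
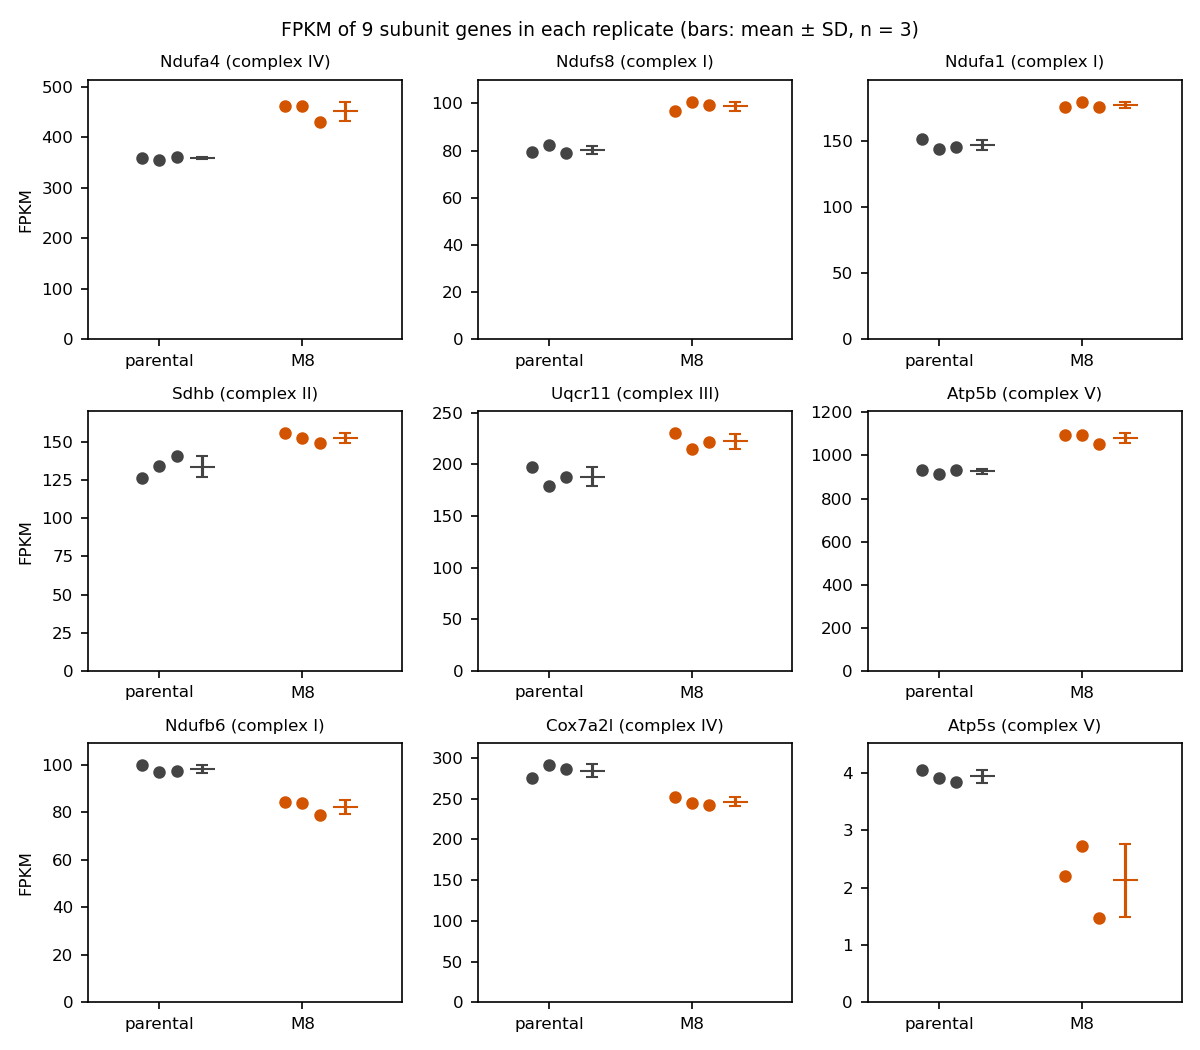
FPKM of 9 subunit genes in each of the 3 parental and 3 M8 libraries (points), with the mean and SD of each line beside them and axes from 0. Ndufa4, Ndufs8, Ndufa1, Sdhb, Uqcr11 and Atp5b had all M8 values above the parental ones, and Ndufb6, Cox7a2l and Atp5s had all M8 values below them. Atp5s belongs to the group by symbol.

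Complex II, the succinate dehydrogenase that also works in the TCA cycle, has 4 subunits. Sdhb, the iron-sulfur subunit, had the highest mean level of them, 143 FPKM. It rose from 126, 134 and 141 FPKM to 156, 152 and 149 FPKM (log2 fold change 0.19, SE 0.046, limma adjusted p = 0.0155), and all M8 values were above the parental ones. Sdhd, a membrane anchor, had 87.2, 85.2 and 88.8 FPKM against 97.8, 94.4 and 90.2 FPKM (0.11, SE 0.043, limma adjusted p = 0.0801), a call that held in 2 of the 6 fits that left out a library.

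The other two subunit genes of complex II did not pass. On the TPM, upper-quartile and quantile scales complex II had 1 of 4 genes higher and 1 lower, near the shares of all genes on these scales (15.6% and 20.8%, 13.9% and 26.1%, and 17.2% and 16.7%). On FPKM as deposited 21.2% of all genes were higher, and 40.2% of other genes with a mean of at least 60 FPKM. Sdha, the flavoprotein that oxidizes succinate, had 96.1, 93.9 and 93.1 FPKM in the parental and 98.2, 93.8 and 97.7 FPKM in the M8 libraries (log2 fold change 0.03, SE 0.038, limma adjusted p = 0.554). Sdhc, the other anchor, had 96.3, 95.6 and 102 FPKM against 92.3, 94.7 and 94.7 FPKM (-0.06, SE 0.040, limma adjusted p = 0.292). All M8 values of Sdhc were below the parental ones, whereas those of its partner Sdhd were all above.

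In complex III, the cytochrome bc1 complex, 3 of 8 genes were higher in M8, and on the TPM, upper-quartile and quantile scales 2 were higher and 1 was lower. All genes tested had 21.2% higher and 16.5% lower on FPKM as deposited, and 15.6% and 20.8%, 13.9% and 26.1%, and 17.2% and 16.7% on the other scales. Among other genes with a mean of at least 60 FPKM, 40.2% were higher and 10.6% lower on FPKM as deposited. Uqcr11, a small accessory subunit, had 197, 179 and 188 FPKM in the parental and 229.9, 215 and 221 FPKM in the M8 libraries (log2 fold change 0.24, SE 0.047, limma adjusted p = 0.00558). Uqcrfs1, the Rieske iron-sulfur protein that hands electrons towards cytochrome c, had 61.2, 69.0 and 66.1 FPKM against 76.1, 76.0 and 72.9 FPKM (0.20, SE 0.050, limma adjusted p = 0.0179). All M8 values were above the parental ones in both genes. Uqcr11 has 2 annotated pseudogene copies of at least 95% identity, so its value is less certain than that of Uqcrfs1, which has none.

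The core proteins of complex III, Uqcrc1 and Uqcrc2, are related to mitochondrial processing peptidases. Uqcrc2 had 77.7, 82.9 and 75.4 FPKM in the parental and 86.0, 88.0 and 82.8 FPKM in the M8 libraries, which overlapped (log2 fold change 0.12, SE 0.047, limma adjusted p = 0.0801), and its call held in 2 of the 6 fits that left out a library. Uqcrc1 had 97.0, 105 and 111 FPKM against 111, 114 and 110.0 FPKM (0.10, SE 0.051, limma adjusted p = 0.171). Uqcrq, a small subunit with the highest mean level of the complex, 501 FPKM, had 534, 447 and 479 FPKM against 526, 520.1 and 501 FPKM (0.09, SE 0.061, limma adjusted p = 0.306). The lines overlapped in each of these 3 genes.

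Complex IV, cytochrome c oxidase, had 10 of 14 genes higher and 1 lower on FPKM as deposited, 6 higher and 1 lower with upper-quartile scaling, and 3 higher and 1 lower with quantile normalization. Over all genes tested, 21.2% were higher and 16.5% lower on FPKM as deposited, 13.9% and 26.1% with upper-quartile scaling, and 17.2% and 16.7% with quantile normalization, so that under the last the share of higher genes was near that of all genes. Without M8 replicate 1, 5 of the 14 were higher. Among other genes with a mean of at least 60 FPKM, 40.2% were higher and 10.6% lower on FPKM as deposited. Ndufa4, whose promoter is printed above, had the largest rise of all subunit genes. It had 360.0, 356 and 361 FPKM in the parental and 462, 462 and 430.4 FPKM in the M8 libraries, a log2 fold change of 0.33 (SE 0.041, limma adjusted p = 0.000872). The parental libraries differed by under 5 FPKM and lay far below the lowest M8 library.

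The paralog of Ndufa4 went the other way at a far lower level. Ndufa4l2, known as a gene induced in hypoxia, had 1.30, 1.48 and 1.12 FPKM in the parental and 0.357, 0.675 and 0.617 FPKM in the M8 libraries. With a mean of 0.925 FPKM it was just under the filter and was not among the 79 genes. In the fit without a filter its log2 fold change was -0.57 (SE 0.10, limma adjusted p = 0.0166), and all M8 values were below the parental ones. Its exons overlap those of Shmt2 on the opposite strand.

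Several subunits of complex IV exist as isoforms from separate genes, and the ubiquitous isoforms carried nearly all of the expression. Cox4i1, the most abundant gene of the complex at 744 FPKM, had 680.1, 713 and 745 FPKM in the parental and 756, 790.1 and 778 FPKM in the M8 libraries (log2 fold change 0.12, SE 0.045, limma adjusted p = 0.0709). This call was lost in 5 of the 6 fits that left out a library. Its isoform Cox4i2 stayed at or below 0.159 FPKM in every library. Cox6b1 had 548, 531 and 585 FPKM against 605, 565 and 562 FPKM (0.06, SE 0.049, limma adjusted p = 0.414), and the testis isoform Cox6b2 was listed at 0 in all libraries.

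Cox6a1, the ubiquitous form of subunit VIa, had 609.8, 593 and 615 FPKM in the parental and 711, 729 and 685 FPKM in the M8 libraries (log2 fold change 0.22, SE 0.040, limma adjusted p = 0.00381). The form of heart and skeletal muscle, Cox6a2, was also present, at 24.5, 24.1 and 23.3 FPKM against 26.3, 27.2 and 30.3 FPKM (0.21, SE 0.057, limma adjusted p = 0.0225). The M8 values of both isoforms were all above the parental ones. The 11 muscle markers examined, among them Ckm, Acta1 and Mb, summed to between 0.0528 and 0.464 FPKM per library, and 5 of them were listed at 0 throughout. Exons of Cox6a2 overlap those of Itgad on the opposite strand.

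Cox8a, the ubiquitous form of subunit VIII, had 607, 623 and 624 FPKM in the parental and 677, 705 and 682 FPKM in the M8 libraries (log2 fold change 0.15, SE 0.038, limma adjusted p = 0.0151). The muscle form Cox8b had 0.246 FPKM in 1 parental library and was listed at 0 in the other 5, and Cox8c was listed at 0 in all. In the Cox7a family, Cox7a2 had 143, 145 and 165 FPKM against 159, 152 and 158 FPKM (0.05, SE 0.057, limma adjusted p = 0.518). The muscle form Cox7a1, the member just inside the filter, had 1.21, 1.53 and 3.38 FPKM against 2.21, 2.19 and 1.14 FPKM, with overlapping groups (-0.05, SE 0.25, limma adjusted p = 0.893).

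Cox7a2l, a relative of Cox7a2 that joins complexes III and IV into supercomplexes, was the complex IV gene that was lower. It had 276, 291 and 286 FPKM in the parental and 253, 244 and 242 FPKM in the M8 libraries, with all M8 values below the parental ones. The log2 fold change was -0.21 (SE 0.039, limma adjusted p = 0.00495), and 1 annotated pseudogene shares at least 95% identity with it.

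Cox5a and Cox5b encode subunits on the matrix side of complex IV. Cox5b had 374, 415 and 431 FPKM in the parental and 478, 449.7 and 459 FPKM in the M8 libraries (log2 fold change 0.19, SE 0.055, limma adjusted p = 0.0325), and Cox5a had 280.0, 309.7 and 324 FPKM against 342, 337 and 327 FPKM (0.14, SE 0.054, limma adjusted p = 0.0795). All M8 values were above the parental ones, by a small margin for Cox5a. The call for Cox5b was lost without M8 replicate 1 (limma adjusted p = 0.126), and that for Cox5a held in 1 of the 6 fits that left out a library. Cox6c, Cox7b and Cox7c were also called higher, with log2 fold changes of 0.16, 0.15 and 0.10, and each has between 2 and 4 annotated pseudogene copies. The calls for Cox7b, whose groups overlapped, and Cox7c each held in 2 of the 6 fits that left out a library, and that for Cox6c in all 6. The log2 fold change of Cox7c was -0.02 under quantile normalization.

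Complex V had 7 of 17 genes higher and 1 lower, and with quantile normalization 4 higher and 3 lower. The lower gene on FPKM as deposited was Atp5s, a member by symbol as described below. Against 21.2% higher and 16.5% lower over all genes on FPKM as deposited, and 17.2% and 16.7% with quantile normalization, the quantile counts were near those of all genes. Among other genes with a mean of at least 60 FPKM, 40.2% were higher and 10.6% lower on FPKM as deposited. The F1 part of complex V, which makes ATP in the matrix, is built from 5 kinds of subunit, and 3 of these were higher. Atp5b, the catalytic beta subunit, was the most abundant of all subunit genes with a mean of 1004 FPKM. It had 931, 914 and 933 FPKM in the parental and 1093, 1097 and 1055 FPKM in the M8 libraries (log2 fold change 0.22, SE 0.038, limma adjusted p = 0.00309). The lines were clearly apart.

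Atp5a1, the alpha subunit that alternates with beta in the F1 head, had 267, 253 and 252 FPKM in the parental and 295, 297 and 283 FPKM in the M8 libraries (log2 fold change 0.18, SE 0.041, limma adjusted p = 0.0110). All M8 values were above the parental ones. Atp5c1, the gamma subunit that forms the rotating stalk, had 252, 261 and 258 FPKM against 258, 251 and 249.6 FPKM, which overlapped (-0.02, SE 0.036, limma adjusted p = 0.651). Atp5e, the epsilon subunit, was called higher with a log2 fold change of 0.12 (limma adjusted p = 0.0407), which was -0.02 under quantile normalization, and the call was lost without M8 replicate 1 or M8 replicate 3. Atp5d, the delta subunit, did not pass (0.08, limma adjusted p = 0.236).

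Subunit c, which forms the proton-carrying ring of the membrane part, is encoded by 3 genes whose mature proteins are known to be identical and whose import sequences differ. Atp5g1 had 188, 179 and 179 FPKM in the parental and 228, 221 and 205 FPKM in the M8 libraries (log2 fold change 0.26, SE 0.047, limma adjusted p = 0.00394). Atp5g3 had 434, 449 and 442 FPKM against 510.2, 524 and 501 FPKM (0.21, SE 0.037, limma adjusted p = 0.00355). The M8 values of both were above the parental ones. Atp5g2, the most abundant of the group, had 638, 709 and 645 FPKM against 701, 717 and 682 FPKM, with overlapping groups (0.08, SE 0.049, limma adjusted p = 0.268). Whether the change of Atp5g2 differed from that of the other two was not tested.

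Atp5j2, subunit f of the membrane part, had 457, 481 and 497 FPKM in the parental and 585, 557 and 563 FPKM in the M8 libraries, all above the parental ones (log2 fold change 0.25, SE 0.044, limma adjusted p = 0.00358). Atp5f1, the stator subunit b, had 191, 196 and 195 FPKM against 208.5, 206 and 205 FPKM (0.09, SE 0.035, limma adjusted p = 0.0789). Its call held in 1 of the 6 fits that left out a library, and its log2 fold change was -0.01 under quantile normalization.

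Atp5s, whose promoter is printed above, had the largest change by fold of the 79 genes chosen by name and was lower in M8. It had 4.05, 3.92 and 3.84 FPKM in the parental and 2.19, 2.73 and 1.46 FPKM in the M8 libraries, a ratio of means of 0.541. The log2 fold change on log2(FPKM + 1), which understates the change of weakly expressed genes, was -0.68 (SE 0.135, limma adjusted p = 0.00629). All M8 values were below the parental ones. RefSeq names this gene Dmac2l and its relative Atp5sl Dmac2, names for distal membrane arm assembly components, so that they belong to the Atp5 group by symbol. Atp5sl had 2.59, 2.48 and 2.67 FPKM against 2.28, 2.98 and 2.65 FPKM (0.02, SE 0.093, limma adjusted p = 0.908). These 2 genes and Cox7a1 were the members with the lowest means, between 1.94 and 3.03 FPKM, and the next, Ndufa11, had 16.8 FPKM.

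Of the 79 genes, 41 shared exon positions with another gene or had a pseudogene copy of at least 95% identity over at least 1 read length. Of these 41, 18 were higher and 2 lower, and of the other 38, 15 were higher and 1 lower. On FPKM as deposited these were 43.9% and 39.5% for higher genes, against 21.2% of all genes tested and 40.2% of other genes with a mean of at least 60 FPKM. For lower genes they were 4.88% and 2.63%, against 16.5% and 10.6%. The difference between the groups of 41 and 38 genes was not tested.

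Genes that serve the respiratory chain outside the chosen names were counted in the same fit, against 21.2% higher and 16.5% lower over all genes. These shares were 15.6% and 20.8% on the TPM scale, 13.9% and 26.1% with upper-quartile scaling and 17.2% and 16.7% with quantile normalization. Among 13 electron carriers and further subunits, 1 was higher and 2 were lower, and on the TPM, upper-quartile and quantile scales 3, 4 and 5 were lower and the call for the higher gene was lost. Without parental replicate 1, 4 were lower. Cyc1, cytochrome c1 of complex III, had 165, 159 and 169 FPKM in the parental and 179, 185 and 175 FPKM in the M8 libraries (log2 fold change 0.13, SE 0.040, limma adjusted p = 0.0414), a call also lost without parental replicate 2, M8 replicate 1 or M8 replicate 2. Etfdh, which brings electrons from fatty acid oxidation to coenzyme Q, fell from 28.8, 29.3 and 28.3 FPKM to 24.4, 23.5 and 23.8 FPKM (-0.26, SE 0.042, limma adjusted p = 0.00261), and Sqrdl, sulfide quinone reductase, fell from 22.1, 21.9 and 22.1 FPKM to 17.3, 14.2 and 16.1 FPKM (-0.45, SE 0.066, limma adjusted p = 0.00164). These routes enter at coenzyme Q without complex I.

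Assembly factors build the complexes and are not part of them. Of 16 complex I assembly factors, limma called 0 in either direction, and 0 had an unadjusted p below 0.05. With upper-quartile scaling 3 were lower and with quantile normalization 1 was higher. Without parental replicate 1, 2 were lower, without M8 replicate 2, 1 was higher, and without M8 replicate 3, 1 was lower. The 16 did not include Atp5s and Atp5sl, which RefSeq names as assembly components and which were counted with complex V by symbol. Of these, Atp5s was lower in M8 and Atp5sl did not pass. Of 13 factors for complexes II, III and V, 2 were higher, Sdhaf4 (log2 fold change 0.30, SE 0.064) and Uqcc1 (0.21, SE 0.055), and 2 were lower, Bcs1l (-0.20, SE 0.066) and Uqcc2 (-0.16, SE 0.066). The calls for Bcs1l and Uqcc2 were both lost when any 1 of the 3 M8 replicates was left out, that for Bcs1l also without parental replicate 1, and that for Uqcc2 without parental replicate 2 or 3. Of 25 factors for complex IV, 8 were higher and 2 lower, which became 3 and 2 on the TPM and upper-quartile scales. Without parental replicate 2, parental replicate 3 or M8 replicate 1, 3, 5 and 4 were higher. Among them Coa3, which acts with newly made COX1, had 48.5, 55.7 and 45.8 FPKM in the parental and 68.8, 56.8 and 65.7 FPKM in the M8 libraries (0.35, SE 0.084, limma adjusted p = 0.0146), and Sco2, a copper chaperone, had 37.8, 34.1 and 35.8 FPKM against 44.7, 48.0 and 43.6 FPKM (0.33, SE 0.053, limma adjusted p = 0.00251).

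Of 12 genes of coenzyme Q synthesis, 3 were higher and 1 was lower, but on the TPM and upper-quartile scales and without M8 replicate 1, a single gene was higher. Pdss1, which makes the side chain of coenzyme Q, had 7.26, 8.21 and 7.60 FPKM in the parental and 12.4, 11.8 and 12.2 FPKM in the M8 libraries. Its log2 fold change of 0.60 (SE 0.059, limma adjusted p = 0.000290) exceeded that of every subunit gene that was higher, and all M8 values were above the parental ones. Coq4 was higher (0.23, SE 0.083, limma adjusted p = 0.0666) and the kinase-like gene Adck4 lower (-0.35, SE 0.112, limma adjusted p = 0.0417), a call lost without parental replicate 1, M8 replicate 1 or M8 replicate 2.

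Of 13 TCA cycle enzymes, 4 were higher, among them Dlst (log2 fold change 0.20), Dld (0.18) and Mdh2 (0.16), and with quantile normalization 1 was and without M8 replicate 1, 2 were. Of 21 mitochondrial membrane and import proteins, 11 were higher, with a median log2 fold change of 0.16, and 11, 8 and 10 were higher on the TPM, quantile and upper-quartile scales, with medians of 0.13, 0.07 and 0.10. Leaving out parental replicate 1 lowered the median on FPKM as deposited to 0.10. Tomm40, the channel through which imported subunits enter, had 78.4, 81.3 and 83.6 FPKM in the parental and 117, 115 and 107 FPKM in the M8 libraries (0.47, SE 0.045, limma adjusted p = 0.000261). Slc25a5, an ADP/ATP carrier, had 401, 384 and 361 FPKM against 504, 488 and 463 FPKM (0.34, SE 0.050, limma adjusted p = 0.00161), and Phb2, a scaffold protein of the inner membrane, had 167, 179 and 184 FPKM against 234, 219 and 207 FPKM (0.31, SE 0.055, limma adjusted p = 0.00348). The M8 values of these 3 genes were all above the parental ones.

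Of 14 regulators of mitochondrial genes, 5 were higher and 3 lower, with upper-quartile scaling 3 and 3, and with quantile normalization 5 and 1. Without M8 replicate 1, 3 were higher, and the calls of all 3 lower genes were lost without M8 replicate 1 or M8 replicate 2. Nrf1, which binds the first of the motifs searched above, had 14.2, 15.05 and 14.8 FPKM in the parental and 18.6, 17.2 and 17.6 FPKM in the M8 libraries (log2 fold change 0.26, SE 0.050, limma adjusted p = 0.00560). Its M8 values were above the parental ones, and the same held for Gabpb2 (0.28, SE 0.070, limma adjusted p = 0.0168). Tfb1m, which methylates mitochondrial ribosomal RNA, was lower with overlapping groups (-0.30, SE 0.116, limma adjusted p = 0.0783). Gabpa, the ETS factor named with the motifs and picked here after its values were seen, had 18.9, 18.3 and 17.2 FPKM in the parental and 16.8, 16.2 and 16.2 FPKM in the M8 libraries, all below the parental ones (-0.14, SE 0.051, limma adjusted p = 0.0675). That call was lost in 5 of the 6 fits that left out a library. Exons of Gabpa overlap those of the subunit gene Atp5j on the opposite strand.

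**Figure D5:**
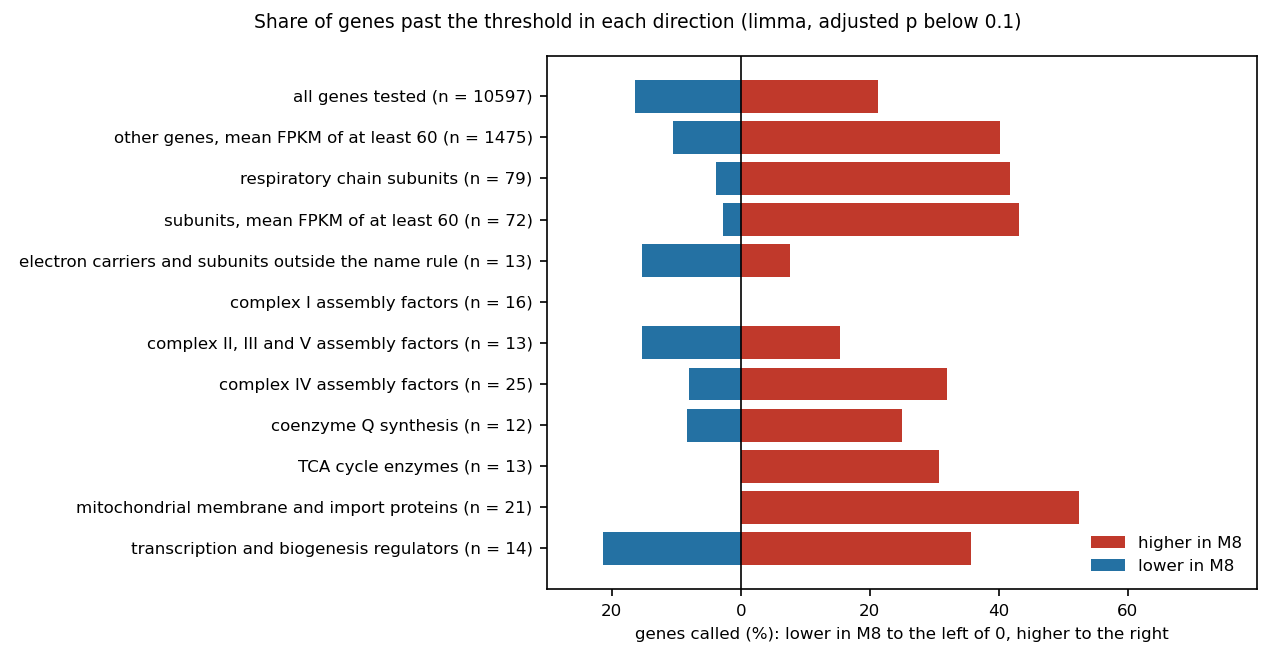
Percentage of genes higher (right, red) and lower (left, blue) in M8 in limma's test on FPKM as deposited, for all genes, other genes with a mean of at least 60 FPKM, the subunits and the other lists, with the number of genes tested. The shares of higher genes were 41.8% for the subunits and 40.2% for other abundant genes, and the shares of lower genes were 3.797% and 10.6%.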

How the data were processed

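Total RNA of 3 parental CT26.mMR1 and 3 M8 libraries was sequenced after stranded mRNA library preparation. Single reads of 101 bases were aligned to mm10 by the authors, who deposited FPKM values, a table of 24346 symbols per library. The submitters' processing notes name TopHat2 2.1.1, Bowtie2 2.2.8, SAMtools 0.1.18 and Cuffdiff 2.2.1, whereas the study's methods give a different TopHat version and name Cufflinks for the FPKM, so which tool scaled the values is not settled here. The gene annotation and the strand setting are not given in the sources used here. FPKM values are not counts, so no count test was run and only relative depth is known.

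Samples were grouped by the labels. limma 3.58.1 (R 4.3.3, lmFit and eBayes with trend) was fitted to log2(FPKM + 1), a pseudocount of 1, over the 10597 genes that averaged 1 FPKM or more, with Benjamini-Hochberg adjustment over all of them and a threshold of 0.1, after the study's FDR. Counts and medians describe the lists, without a set test. The fit was tested on simulated data. Genes named are, per complex, up to 4 in each direction with the largest change among called genes without overlap, a fixed set by role and isoform, the most abundant gene, up to 3 called genes of each other list, and genes near the filter, with Cox6c, Cox7b, Cox7c, Atp5d, Atp5e, Atp5f1, Ndufa2, Ndufa13, and Ndufs6 added to complete counts. The members and lists were chosen with earlier results of these data known. Promoters and symbols are from RefSeq, and overlaps, lengths and pseudogene copies (blastn 2.17.0) from GENCODE. Alternatives were other pseudocounts, filters, scalings and thresholds, no trend, a replicate block, a correction for GC content and length, and each library left out. Other steps used pandas 2.3.3, matplotlib 3.10.9 and scipy 1.17.1 under Python 3.11.15. A few genes counted in the totals are not reported here by name.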

Additional observations from a re-analysis of the deposited data

How the results depend on the processing

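The number of subunit genes higher in M8, 33 on FPKM as deposited, became 21 after upper-quartile scaling, 13 after quantile normalization, and between 20 and 38 when 1 library was left out, with 20 without M8 replicate 1. The number lower, 3, was 9 on the TPM scale, 15 with quantile normalization, 13 with upper-quartile scaling, 6 with the correction for GC content and length and 5 with that correction and a replicate block. The shares of all genes called with that correction or with a library left out are not given here. On the TPM, quantile and upper-quartile scales the median log2 fold change was 0.045, -0.0137 and 0.020 for complex I, 0.035, -0.0163 and 0.010 for complex II, 0.057, -0.00931 and 0.032 for complex III, 0.11, 0.047 and 0.085 for complex IV, and 0.053, -0.0103 and 0.028 for complex V, where it was 0.063 with the correction for GC content and length, with or without the block. Leaving out 1 library gave medians of 0.044 to 0.10 for complex I, 0.052 to 0.082 for complex II, 0.084 to 0.12 for complex III, 0.11 to 0.18 for complex IV and 0.066 to 0.11 for complex V, and of these complex I, IV and V were lowest without parental replicate 1. The cause was not tested. Whether the replicate numbers pair the libraries is not known. The correlations of same-numbered deviations were 0.10, -0.11 and -0.03, and those of differently numbered ones lay between -0.13 and 0.18. With so few libraries such values cannot exclude pairing. With the number as a replicate block, 29 genes were higher and 4 lower. Other alternatives kept both counts within 1.5-fold. Depth is known only relative to parental replicate 1, so no counting error is given.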

Other observations

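The spread between replicates differed among the subunit genes, and the genes named here were chosen after their values were seen. The median coefficient of variation over the 79 genes was 4.50% in the parental and 2.80% in the M8 libraries, against 5.62% and 4.42% over all genes tested and 4.25% and 2.60% over other genes with a mean of at least 60 FPKM. Apart from Cox7a1, at 57.6% with a mean of 1.94 FPKM, the most variable genes in parental cells were Ndufv3 and Ndufs5 of complex I. Ndufv3 had 91.3, 121 and 135 FPKM in the parental libraries, a coefficient of 19.3%, and 116, 124 and 119 FPKM in M8, 3.24%. Ndufs5, an accessory subunit in the intermembrane space, had 91.9, 108 and 134 FPKM in the parental and 119, 95.3 and 131 FPKM in the M8 libraries, 19.2% and 15.7%. Atp5k, subunit e of the ATP synthase, followed with 341, 314 and 406 FPKM against 413, 395 and 329.9 FPKM. Ndufs5 and Atp5k each have 1 annotated pseudogene copy, and Ndufv3 has none.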
